A study of Mus musculus with 16 samples.

Results

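The genes described here are 10 textbook targets of p53, the transcription factor that cells stabilise after DNA damage and other stress: Cdkn1a, Mdm2, Ccng1, Trp53inp1, Bax, Btg2, Sesn2, Phlda3, Gdf15 and Eda2r. They were chosen by name among the 36518 gene names on the array, with earlier results of these data known. Of the 10, 9 could be tested, among 24363 genes tested in all. To ask how loss of Lcn2, the gene of the secreted carrier protein lipocalin 2, bears on liver injury, RNA of whole liver was measured on 16 Agilent 1-colour arrays. All mice were male BALB/c, 6 to 8 weeks old at the start and on regular chow. Wild type (WT) mice gave 4 control and 5 CCl4 arrays. Lcn2 knockout mice (Lcn2-/-), which lack the gene throughout the body, gave 3 control and 4 CCl4 arrays. The Lcn2-/- line was made on a mixed background that included C57BL/6 and then backcrossed to BALB/c. CCl4, a solvent that hepatocytes turn into a reactive radical, was injected into the abdomen in corn oil at 0.5 ml/kg, 2 times a week for 4 weeks, and mice were killed 48 h after the final injection. Control mice received corn oil. For the CCl4 groups the study gives an n that matches the number of arrays, in mice by its wording. For the controls the sources used here give none, so the p-values measure the spread between arrays, which may in part be technical.

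p53 is kept low by the ubiquitin ligase Mdm2, which is itself a p53 target, so that the response limits itself. When p53 is released it binds paired half-sites in the DNA of its targets. Among these, Cdkn1a codes for p21, which holds cyclin-dependent kinases and so stops the cell cycle, Bax codes for a protein that opens the outer mitochondrial membrane in apoptosis, and others damp growth signals or are secreted. In liver, p21 is known for holding back hepatocyte division after injury, and several of these genes, Cdkn1a, Btg2, Sesn2 and Gdf15 among them, are also induced by routes that do not need p53. A labelled p53 target is therefore not a measure of p53 itself.

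The windows from 250 bases before to 50 bases after the gene start were searched for the p53 full site, a pair of half-sites with no spacer (20 letters, up to 3 mismatches, the central C and G of each half-site kept), and for the exact half-site (10 letters). The motif reads the same on both strands, and a half-site may lie within a full site. By symbol, 9 of the 10 genes matched the RefSeq table of GRCm38.p6, the other being Trp53inp1. These stretches are shown because they hold the matches found, in capitals, with flanks of 20 bases.
Cdkn1a, chr17:29090908-29090967, plus strand: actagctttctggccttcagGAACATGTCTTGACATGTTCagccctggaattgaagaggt
Cdkn1a, half-site, chr17:29090886-29090935, plus strand: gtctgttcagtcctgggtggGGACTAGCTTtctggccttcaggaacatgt
Ccng1, chr11:40755442-40755501, minus strand: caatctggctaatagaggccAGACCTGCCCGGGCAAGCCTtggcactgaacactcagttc
Mdm2, chr10:117710915-117710964, minus strand: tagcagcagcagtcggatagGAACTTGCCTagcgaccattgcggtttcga
Bax, chr7:45467070-45467119, minus strand: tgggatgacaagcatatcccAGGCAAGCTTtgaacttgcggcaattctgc

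The full sites of Cdkn1a and Ccng1 each had 1 mismatch, and lay at positions -51 to -32 and -195 to -176 from the start. For Cdkn1a this is the start in the window chr17:29090729-29091028, upstream of its other window, chr17:29093519-29093818. Which of these starts gives the RNA measured here was not analysed. Cdkn1a also held an exact half-site outside its full site, at positions -73 to -64, on a stretch that overlaps the first. In Mdm2 and Bax the match was a half-site alone. Of all 32851 windows in the table, 1.38% held a full site by this rule and 8.36% held an exact half-site. No match was found in the windows of Btg2, Sesn2, Phlda3, Gdf15 or Eda2r, or in a second window of Cdkn1a, which says only that these letters are not in those windows.

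Levels are log2 of the quantile-normalized signal of 1 probe per gene, and differences between groups are on that log2 scale. The share of spots well above background was 51.6% to 60.9% over the arrays, and no spot was saturated. The genotype labels were checked with Lcn2, whose level was 10.46 to 12.25 on the Lcn2-/- arrays and 13.80 to 17.57 on the WT arrays. Its probe was well above background on all 16 arrays, the 7 of Lcn2-/- included, and the sources used here do not give the deleted part of the gene, so the remaining signal was not traced. The liver label was checked with 6 hepatocyte markers, whose mean level was 18.21 to 18.50 on every array. Markers of stellate cells, macrophages, neutrophils, lymphocytes, cholangiocytes and endothelium were also measured in these whole livers, so in what follows more RNA per cell and more cells of a type cannot be told apart. The arrays lie on 2 slides: the first holds all controls and WT CCl4 1, the second the other CCl4 arrays. WT control 3 and Lcn2-/- control 3 stand apart from the other controls. On a scale where 0 is the mean control and 1 the mean CCl4 level, over genes that without the array in question were called and differed by at least 1, these lay at 0.46 and 0.36 by the median gene and the other controls at -0.16 to 0.04. Counts of the members and of each gene list called without both of these controls are given where they differ.

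**Figure D1:**
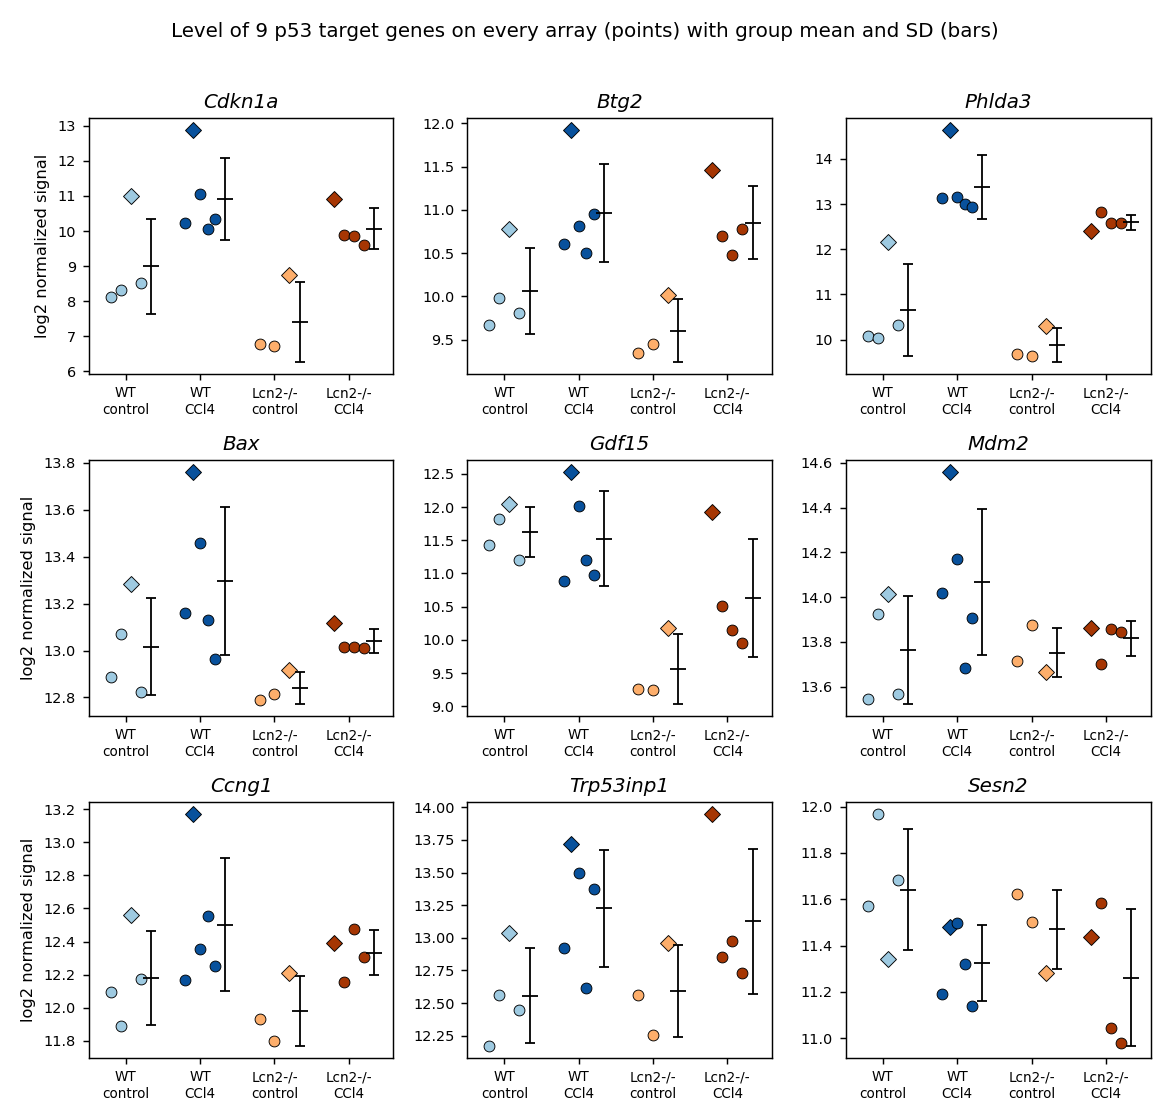
Level (y axis, log2 normalized signal) of each of the 9 tested genes on every array by group (x axis), with a bar for the mean and SD of the group. Diamonds mark WT control 3, WT CCl4 2, Lcn2-/- control 3 and Lcn2-/- CCl4 1, 1 array per group. For Phlda3 every CCl4 array lies above every control of its genotype.

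Phlda3 was the member with the clearest rise. It codes for a small protein of little more than a lipid-binding domain, which competes with the kinase AKT for the membrane. Its probe lies on chromosome 1 (137665642 to 137665701, mm9). In WT controls Phlda3 measured 10.07, 10.03, 12.16 and 10.33, and under CCl4 13.14, 14.64, 13.15, 12.99 and 12.94. In Lcn2-/- controls it measured 9.68, 9.63 and 10.31, and under CCl4 12.40, 12.82, 12.58 and 12.59. In both genotypes the lowest CCl4 array lay above the highest control, WT control 3 included. The rise in WT was 2.72, or 6.61-fold (SE 0.423, adjusted p 0.000508 in limma). That in Lcn2-/- was also 2.72, or 6.59-fold (SE 0.482, adjusted p 0.00217 in limma). It stayed past the threshold of 0.05 in all 16 fits that left out 1 array, with rises of 2.41 to 3.23 in WT and 2.60 to 2.94 in Lcn2-/-. On the first slide, WT CCl4 1 at 13.14 lay above all WT controls, by 2.49 over their mean. With slide as a block the difference in WT was 2.49 (adjusted p 0.0671 in limma), past the threshold no more, and the difference in Lcn2-/- was 2.43 (adjusted p 0.195 in limma). This fit rests on WT CCl4 1 as the single CCl4 array of the first slide. No Lcn2-/- group lies on both slides, so in that genotype slide and treatment cannot be told apart.

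Cdkn1a, the gene of p21, was read by a probe with 10 spots per array (chromosome 17, 29237377 to 29237436, mm9), whose SD within an array was 0.0163 to 0.194. In WT controls Cdkn1a measured 8.13, 8.32, 11.01 and 8.52, and under CCl4 10.22, 12.87, 11.04, 10.05 and 10.35. The control at 11.01 is WT control 3, and it alone overlaps the CCl4 arrays. In Lcn2-/- controls Cdkn1a measured 6.77, 6.73 and 8.73, and under CCl4 10.92, 9.87, 9.87 and 9.60, with no overlap. Cdkn1a rose by 2.65 in Lcn2-/- (SE 0.777, limma adjusted p 0.0387, 6.30-fold). In WT the difference was 1.91 (SE 0.683, 95% interval 0.45 to 3.38, limma adjusted p 0.0703), which did not pass. Without WT control 3 it was 2.58 (limma adjusted p 0.00897), and without both controls numbered 3 it was also 2.58 (limma adjusted p 0.0042). It passed as well with array weights (2.22, limma adjusted p 0.0124) and with slide and column as a random block (1.86, limma adjusted p 0.0242). Of the 16 fits that left out 1 array, 6 lost the call in Lcn2-/- (limma adjusted p from 0.0509 to 0.15). These left out Lcn2-/- control 1, Lcn2-/- control 2 or any of the 4 Lcn2-/- CCl4 arrays, and their differences were 2.31 to 2.81. With slide as a block the difference was 1.79 in Lcn2-/- (limma adjusted p 0.574) and 1.22 in WT (SE 1.16, adjusted p 0.583 in limma), and on the first slide WT CCl4 1 at 10.22 lay within the range of the WT controls. The call in Lcn2-/- was also lost with normexp background correction (2.16, limma adjusted p 0.0529). With no filter on dim probes it was lost at 2.65 (limma adjusted p 0.0608). With the mean of both Cdkn1a probes it was lost at 1.86 (limma adjusted p 0.0535). A second Cdkn1a probe (chromosome 17, 29227986 to 29228045, mm9) was well above background on 1 WT control and 3 WT CCl4 arrays and on none of the 7 Lcn2-/- arrays.

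By group mean, Cdkn1a was ordered WT CCl4 at 10.91, Lcn2-/- CCl4 at 10.06, WT control at 8.99 and Lcn2-/- control at 7.41. Both CCl4 groups overlap and differed by -0.84 (95% interval -2.31 to 0.62), and both control groups overlap and differed by -1.58 (95% interval -3.25 to 0.08). Lcn2-/- CCl4 and WT control were not compared by a test, and the array at 11.01 in WT control lies above all Lcn2-/- CCl4 arrays.

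Btg2 codes for a growth-restraining protein that helps shorten the tails of messenger RNAs. Its probe lies on chromosome 1 (135972094 to 135972153, mm9). In WT controls Btg2 measured 9.67, 9.98, 10.78 and 9.81, and under CCl4 10.61, 11.92, 10.82, 10.50 and 10.95. In Lcn2-/- controls it measured 9.35, 9.44 and 10.02, and under CCl4 11.46, 10.70, 10.48 and 10.77. The pattern is that of Cdkn1a, with WT control 3 the highest control and WT CCl4 2 the highest array. Btg2 rose by 1.25 in Lcn2-/- (SE 0.35, limma adjusted p 0.0314, 2.38-fold), and in WT differed by 0.90 (SE 0.307, limma adjusted p 0.0598). In WT it passed without WT control 3 (1.14, limma adjusted p 0.0169), with array weights (0.98, limma adjusted p 0.0197), with slide and column as a random block (0.87, limma adjusted p 0.0174) and with 75th percentile scaling (0.87, limma adjusted p 0.0488). The call in Lcn2-/- was lost without Lcn2-/- control 1, Lcn2-/- control 2, Lcn2-/- CCl4 1 or Lcn2-/- CCl4 4. In these fits the difference was 1.05 to 1.27 (limma adjusted p from 0.0506 to 0.126). The call was also lost with a block for slide (0.81, limma adjusted p 0.569) or replicate number (1.34, limma adjusted p 0.0511). With slide as a block the difference in WT was 0.54 (SE 0.517, adjusted p 0.584 in limma).

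The count of members called was thus 1 of 9 in WT, where 16.7% of all genes tested were called and 8.05% were called higher. In Lcn2-/- it was 3 of 9, where 12.1% of all genes were called and 6.56% were called higher. The count in WT is near these shares and that in Lcn2-/- above them, and no member was called lower in either genotype (8.63% and 5.58% of all genes). The members were chosen with earlier results of these data known, so no excess over all genes is read from their counts or medians. With an unadjusted limma p under 0.05 there were 4 members in each genotype, where 30.6% of all genes in WT and 27% in Lcn2-/- were so. Groups did not overlap for 1 member in WT (17.4% of all genes) and for 4 in Lcn2-/- (24.8% of all genes), where Bax joins Phlda3, Cdkn1a and Btg2. The median member difference was 0.32 in WT and 0.53 in Lcn2-/-, against -0.03 and -0.02 over all genes tested. Without both controls numbered 3 the same 3 members, Phlda3, Cdkn1a and Btg2, were called in both genotypes, where the share of all genes called was 22.3% in WT and 15.1% in Lcn2-/-. The count in WT was 3 without WT control 3, where 20.8% of all genes were called. In Lcn2-/- it was 1, Phlda3, without Lcn2-/- control 1, Lcn2-/- control 2, Lcn2-/- CCl4 1 or Lcn2-/- CCl4 4, where 6.92%, 6.9%, 9.93% and 11.2% of all genes were called.

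**Figure D2:**
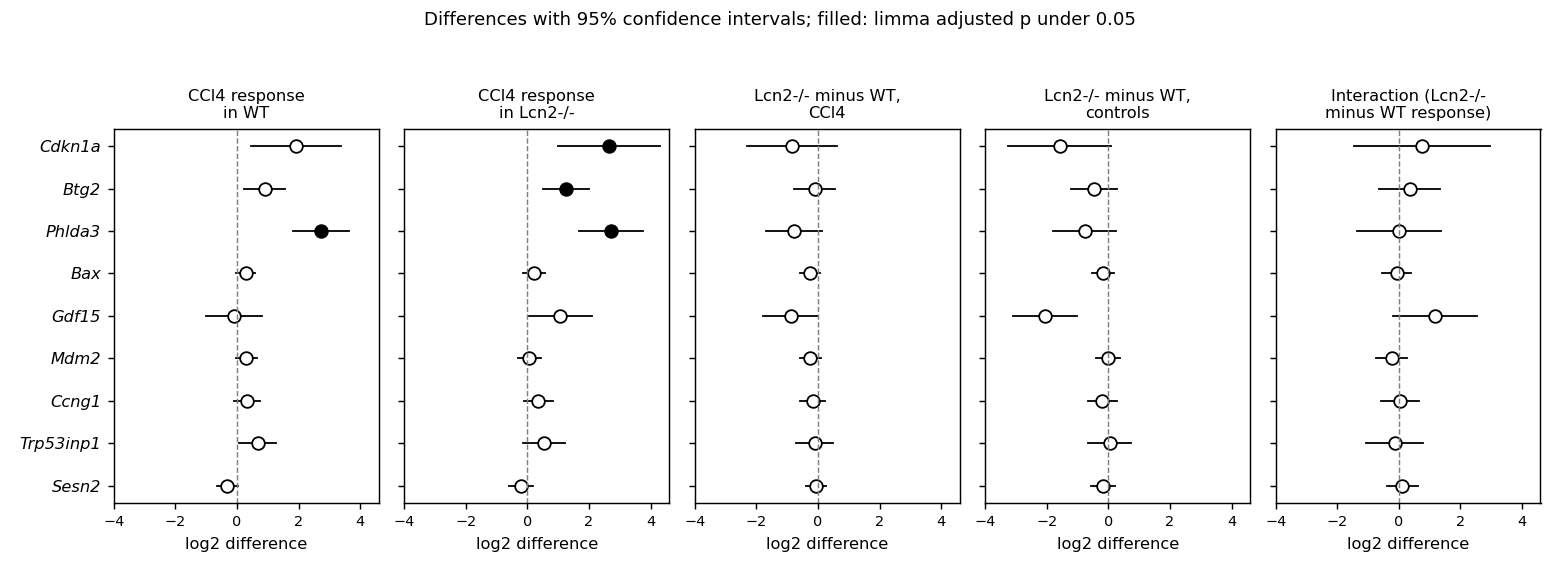
Log2 difference (x axis) with its 95% confidence interval for each of 9 genes (y axis) in 5 comparisons; filled points have a limma adjusted p under 0.05. Phlda3 is filled in WT, Phlda3, Cdkn1a and Btg2 in Lcn2-/-, and none in the comparisons between genotypes.

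The other damage targets did not pass in either genotype. Bax measured 12.82 to 13.28 in WT controls and 12.97 to 13.76 under CCl4, and the difference was 0.28 (limma adjusted p 0.218). In Lcn2-/- Bax measured 12.79 to 12.92 in controls and 13.01 to 13.12 under CCl4, without overlap, but the difference of 0.20 (95% interval -0.16 to 0.56) did not pass (limma adjusted p 0.476). Mdm2 and Ccng1 both feed back on p53. Mdm2 differed by 0.30 in WT (95% interval -0.03 to 0.64) and by 0.07 in Lcn2-/- (95% interval -0.32 to 0.45). Ccng1, which codes for cyclin G1, a protein that brings a phosphatase to Mdm2, differed by 0.32 in WT (95% interval -0.09 to 0.73) and by 0.35 in Lcn2-/- (95% interval -0.12 to 0.82). These intervals leave out a doubling of Mdm2 or Ccng1, which would be 1 on the log2 scale, while Phlda3 rose by 2.72 on the same arrays. With slide as a block the Ccng1 differences were -0.01 and -0.07.

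Trp53inp1 codes for a stress-induced nuclear protein that takes part in p53 phosphorylation and autophagy. It measured 12.17 to 13.04 in WT controls and 12.62 to 13.72 under CCl4, a difference of 0.67 (SE 0.282, limma adjusted p 0.123). In Lcn2-/- the difference was 0.53 (SE 0.321, limma adjusted p 0.31). A second Trp53inp1 probe (chromosome 4, 11092530 to 11092589, mm9), well above background on all 16 arrays, differed by 0.63 in WT (adjusted p 0.121 in limma) and 0.70 in Lcn2-/- (adjusted p 0.146 in limma). Sesn2, the gene of sestrin 2, which restrains the growth kinase mTORC1, was the single member below its controls in both genotypes. Its differences of -0.32 in WT (SE 0.156, adjusted p 0.188 in limma) and -0.21 in Lcn2-/- (SE 0.178, adjusted p 0.487 in limma) did not pass.

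Gdf15 and Eda2r belong to signals between cells. Gdf15 is a secreted stress hormone of the TGF-beta superfamily that lowers appetite through a receptor in the hindbrain. Its probe lies on chromosome 8 (73153293 to 73153352, mm9). In WT controls Gdf15 measured 11.43, 11.82, 12.04 and 11.21, and under CCl4 10.88, 12.53, 12.02, 11.21 and 10.97. The WT groups overlap throughout, with a difference of -0.10 (95% interval -1.0 to 0.80, limma adjusted p 0.904). In Lcn2-/- controls Gdf15 measured 9.26, 9.25 and 10.18, and under CCl4 11.92, 10.51, 10.15 and 9.96. There the difference was 1.07 (SE 0.478, limma adjusted p 0.167), with Lcn2-/- control 3 inside the range of the CCl4 arrays, and with array weights it passed at 1.23 (limma adjusted p 0.0269), where 28.6% of all genes were called. It was 0.64 without Lcn2-/- CCl4 1 (adjusted p 0.363 in limma), and a slide block gave 0.27 in Lcn2-/- (SE 0.839, adjusted p 0.912 in limma) and -0.74 in WT (SE 0.693, adjusted p 0.578 in limma). Eda2r codes for the receptor of the A2 form of ectodysplasin. Of its 2 probes, both on chromosome X (94531320 to 94531379 and 94534281 to 94534340, mm9), the first was well above background on WT control 2 and WT CCl4 2 and the second on WT CCl4 2, so no difference was tested. On the other arrays Eda2r was not well above background. The gene of its ligand, Eda, differed by -0.32 in WT (adjusted p 0.304 in limma) and -0.28 in Lcn2-/- (adjusted p 0.468 in limma), and of 4 tested genes of the pathways of both proteins 0 passed in limma in either genotype, and 0 at an unadjusted p under 0.05. Relb of these 4 passed in each genotype without both controls numbered 3.

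Between genotypes, no member passed in limma, under CCl4 (0.649% of all genes called), in controls (0.517% called) or for the interaction, which sets the response of Lcn2-/- against that of WT (0.0534% called). At an unadjusted limma p under 0.05 there were 0, 1 and 0 members, that member being Gdf15 in controls, beside 13.7%, 8.32% and 3.31% of all genes. All 3 Lcn2-/- controls, 9.25 to 10.18, lay below all 4 WT controls, 11.21 to 12.04, a difference of -2.06 (SE 0.478, 95% interval -3.09 to -1.04, unadjusted p 0.000699, limma adjusted p 0.0878). In controls 5.58% of all genes were lower without overlap in this way, and 9.74% did not overlap in either direction. Gdf15 passed in controls without Lcn2-/- CCl4 1 (-2.06, limma adjusted p 0.0293), with array weights (-2.19, limma adjusted p 0.00323) and with slide and column as a random block (-2.17, limma adjusted p 0.00122). Of all genes 5.14% were called in controls with array weights and 3.05% with that random block. With the tier of the slide as a block it was -1.27 (limma adjusted p 0.995). That fit rests on WT CCl4 1, the single array whose tier does not go with its genotype. The same array is the single CCl4 array of the first slide, so tier and slide cannot be told apart in it. Under CCl4 Gdf15 differed by -0.89 (95% interval -1.79 to 0.01, limma adjusted p 0.372), and its interaction was 1.17 (95% interval -0.19 to 2.54, limma adjusted p 1). With slide and column as a random block the difference under CCl4 was -0.98 and passed (limma adjusted p 0.0388), where 7.44% of all genes were called.

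Phlda3 under CCl4 was the other member without overlap between genotypes, at 12.40 to 12.82 in Lcn2-/- and 12.94 to 14.64 in WT (3.35% of all genes were lower without overlap, and 5.66% did not overlap in either direction). The difference of -0.78 (95% interval -1.68 to 0.13) did not pass (limma adjusted p 0.442). Its interaction was -0.00 (95% interval -1.38 to 1.37), so at this number of arrays the genotypes could differ in their Phlda3 response by more than 2-fold in either direction. For Cdkn1a the interaction was 0.74 (95% interval -1.48 to 2.96), and for Btg2 0.35 (95% interval -0.65 to 1.35). Leaving out 1 array moved these interactions over 0.07 to 1.40 and 0.11 to 0.59. The median member difference was -0.25 under CCl4 and -0.20 in controls, against -0.01 over all genes in both. These comparisons share groups with the CCl4 responses and are not independent of them.

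On each slide the arrays stand in columns, and in 7 columns a WT and a Lcn2-/- array of the same treatment share the column. Set against its column partner, the Lcn2-/- array was lower in all 7 pairs for 4 members. Gdf15 differed by -2.17, -2.57 and -1.87 in the 3 control pairs and by -0.61, -1.52, -1.06 and -1.02 in the 4 CCl4 pairs. Cdkn1a differed by -1.35, -1.60 and -2.27 in control pairs and by -1.95, -1.17, -0.19 and -0.76 in CCl4 pairs. Btg2 differed by -0.76 to -0.02 and Phlda3 by -2.24 to -0.33. Of all genes tested, 8.80% were lower and 5.23% higher in all 7 pairs. In each of these pairs the WT array lies in the upper and the Lcn2-/- array in the lower tier of the slide. Tier and genotype therefore cannot be told apart there. The share of spots well above background was also lower on the Lcn2-/- array of each pair. It was 51.6% to 55.9% on these Lcn2-/- arrays and 54.2% to 60.9% on their WT partners, and its part was not tested.

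**Figure D3:**
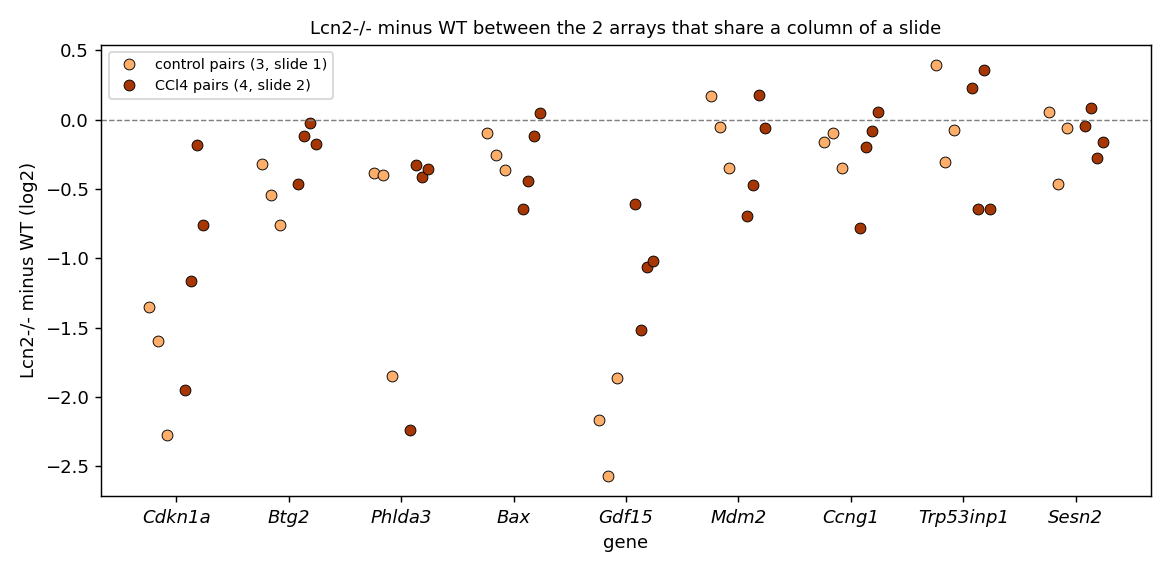
Lcn2-/- minus WT (y axis, log2) for the 2 arrays in each shared column of a slide, by gene (x axis), with 3 control pairs and 4 CCl4 pairs. All points of Cdkn1a, Btg2, Phlda3 and Gdf15 lie below 0, from -0.02 to -2.57.

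Within groups, most members went up and down together from array to array. Over the 16 arrays, deviations from the group means gave a positive r for 32 of 36 pairs of members and r over 0.5 for 25, with a median of 0.67. As a description, the deviations of Cdkn1a went with those of Btg2 (Pearson's r 0.93, Spearman's rho 0.78), Phlda3 (0.89, 0.81), Ccng1 (0.83, 0.65), Bax (0.82, 0.77), Trp53inp1 (0.80, 0.77), Gdf15 (0.78, 0.59) and Mdm2 (0.65, 0.52). Without the arrays farthest from the median of Cdkn1a, WT control 3 and WT CCl4 2, r was 0.84 for Btg2, 0.79 for Trp53inp1, 0.78 for Gdf15, 0.67 for Phlda3, 0.59 for Bax, 0.58 for Ccng1 and 0.23 for Mdm2, so that of Mdm2 rests on those arrays. Sesn2 stood apart, with r of -0.12 to Cdkn1a. Among all genes tested, 10.1% had r over 0.5 to Cdkn1a, and the median was -0.11. The arrays share 1 normalization and, in columns, a place on the slide, and no p is given.

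The genes closest to Cdkn1a by this measure were H2-M2 (r 0.97), a class I-like histocompatibility gene, Clec4a1 (0.96), a lectin of myeloid cells, Anxa5 (0.96), the gene of annexin A5, and Vcam1 (0.96), an adhesion molecule, beside a probe for an intergenic transcript on chromosome 14 (0.97). Of these, Anxa5 rose with CCl4 by 0.70 in WT and 0.86 in Lcn2-/- (limma adjusted p 0.0269 and 0.0222), though not with slide as a block (0.53 and 0.65, adjusted p 0.399 and 0.469 in limma), and the others did not pass in either genotype.

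In each group 1 array stood high for most members. WT control 3 was above its group mean in 8 of 9 members, by 0.64 on average, and Lcn2-/- control 3 in 7 of 9, by 0.36. WT CCl4 2 was above in 9 of 9, by 0.83, and Lcn2-/- CCl4 1 in 8 of 9, by 0.42. The 2 controls share column 3 of the first slide and the 2 CCl4 arrays share column 1 of the second. Over all genes the deviations of arrays sharing a column correlated at 0.14 to 0.64. Markers of other cells moved with this variation: the members' mean deviation correlated with that of 7 lymphocyte markers at 0.74, 5 endothelial markers at 0.67, 8 stellate cell and myofibroblast markers at 0.61, 6 neutrophil markers at 0.56 and 8 macrophage markers at 0.55, with 2 erythroid markers at 0.14, with 5 cholangiocyte markers at -0.03 and with 6 hepatocyte markers at -0.12. Of all genes tested, 9.34% had r over 0.5 to the members' mean deviation, and the median was -0.09. The 75th percentile of intensity was the highest of its group on WT control 3 (1482), Lcn2-/- control 3 (1144) and WT CCl4 2 (2067). On Lcn2-/- CCl4 1 it was 1352, below Lcn2-/- CCl4 3 at 1394. The share of spots well above background was its group's highest on WT control 3 (56.6%), WT CCl4 2 (60.9%) and Lcn2-/- CCl4 1 (55.9%). On Lcn2-/- control 3 it was 52.3%, below Lcn2-/- control 2 at 52.4%. The part of other cells, of signal strength or of the place on the slide in the members' variation was not tested.

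**Figure D4:**
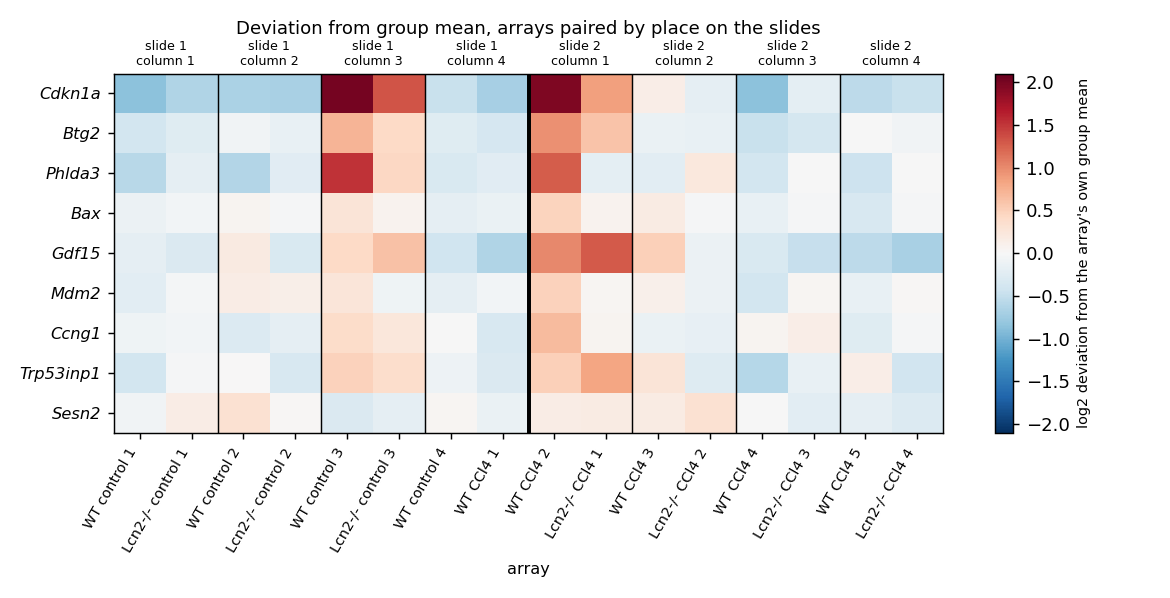
Deviation of each gene (rows) from the mean of the array's own group (colour, log2), with arrays (columns) set in pairs by the column of the slide they share. The pairs WT control 3 with Lcn2-/- control 3 and WT CCl4 2 with Lcn2-/- CCl4 1 are above 0 for most genes, and Cdkn1a has the widest range.

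Markers of other cells also changed with CCl4. Of all genes tested, 8.05% were called higher and 8.63% lower in WT, and 6.56% higher and 5.58% lower in Lcn2-/-. Of 8 stellate cell and myofibroblast markers, 7 rose in WT and 6 in Lcn2-/-, and their summed signal on the linear scale went from 101900 to 198100 in WT controls to 232700 to 513600 under CCl4, and from 98040 to 114500 to 227700 to 314600 in Lcn2-/-. Of 8 macrophage markers, 4 rose in each genotype and 1 fell in WT, with summed signals of 62610 to 189200 in WT controls, 106400 to 152600 in WT CCl4, 60380 to 169500 in Lcn2-/- controls and 93140 to 132200 in Lcn2-/- CCl4. Of 6 neutrophil markers 3 rose in WT and in limma 0 in Lcn2-/-, with 0 there at an unadjusted p under 0.05. None of the 6 hepatocyte markers passed in limma, or at an unadjusted p under 0.05, with summed signals of 1927000 to 2361000 over all groups. Of 7 lymphocyte markers 2 fell in WT and 1 in Lcn2-/-, of 5 cholangiocyte markers 1 rose in each, of 5 endothelial markers 1 rose in each and 1 fell in WT, and of 2 erythroid markers 1 fell in WT. Without both controls numbered 3, 4 neutrophil markers, Mpo, Ngp, S100a8 and S100a9, were called higher in each genotype. So were 5 macrophage markers and 1 lymphocyte marker, and the stellate counts stayed at 7 and 6. A slide block left counts higher of 5 and 3 for stellate and 2 and 2 for macrophage markers. Under it no neutrophil, lymphocyte, cholangiocyte or endothelial marker passed in limma in either genotype, and 1 of 2 erythroid markers was lower in each. Between genotypes 1 marker passed, the macrophage gene Gpnmb, lower in Lcn2-/- controls (limma adjusted p 0.0131), where it was not well above background, and it did not pass without both controls numbered 3 but did with slide as a block or with slide and column as a random block. That random block called 3.05% of all genes in controls and 7.44% under CCl4. With it Col1a1 and Col3a1 were also lower in Lcn2-/- controls and Clec4f higher under CCl4. All 8 stellate cell markers were lower in Lcn2-/-, with median differences of -0.51 under CCl4 and -0.63 in controls, and the macrophage markers had medians of -0.66 and -0.24. Their part in the lower members between genotypes was not tested. The part of these cells in the rises of Phlda3, Cdkn1a and Btg2 was not tested.

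The wider p53 network was read from lists chosen by name, with earlier results of these data known. For the counts of rises, 8.05% of all genes were called higher in WT and 6.56% in Lcn2-/-. Without both controls numbered 3, 22.3% and 15.1% of all genes were called in either direction, and with slide as a block 5.32% and 1.75%. Among 31 other p53 targets, 7 rose in WT and 4 in Lcn2-/-, none fell, and the median differences were 0.34 and 0.32, against -0.03 and -0.02 over all genes tested. Perp, which codes for a membrane protein of desmosomes and apoptosis, rose by 0.80 in WT and 0.76 in Lcn2-/- (limma adjusted p 4.92e-05 and 0.000385). Sulf2, which codes for an enzyme that trims heparan sulfate, rose by 0.74 and 0.96 (limma adjusted p 0.00273 and 0.00174). Tnfrsf10b, the gene of a death receptor for TRAIL, rose by 1.33 in WT and 1.49 in Lcn2-/- (adjusted p 0.023 and 0.0314 in limma). Zmat3, whose protein binds RNA, rose in WT by 0.55 (limma adjusted p 0.0127) and Ephx1, the gene of microsomal epoxide hydrolase, in Lcn2-/- by 0.47 (limma adjusted p 0.0314). With slide as a block 1 of the 31, Perp, passed in WT and 0 in Lcn2-/-, and without both controls numbered 3 the counts were 10 higher and 1 lower in WT and 8 higher and 1 lower in Lcn2-/-. Ephx1 was then at 0.38 in Lcn2-/- and did not pass (adjusted p 0.114 in limma). Between genotypes 0 of the 31 passed in limma under CCl4 or in controls, with 6 and 3 at an unadjusted p under 0.05 (13.7% and 8.32% of all genes). With slide and column as a random block 3 were higher and 3 lower in Lcn2-/- under CCl4, where 7.44% of all genes were called. In controls 2 were lower with that block, where 3.05% of all genes were called.

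**Figure D5:**
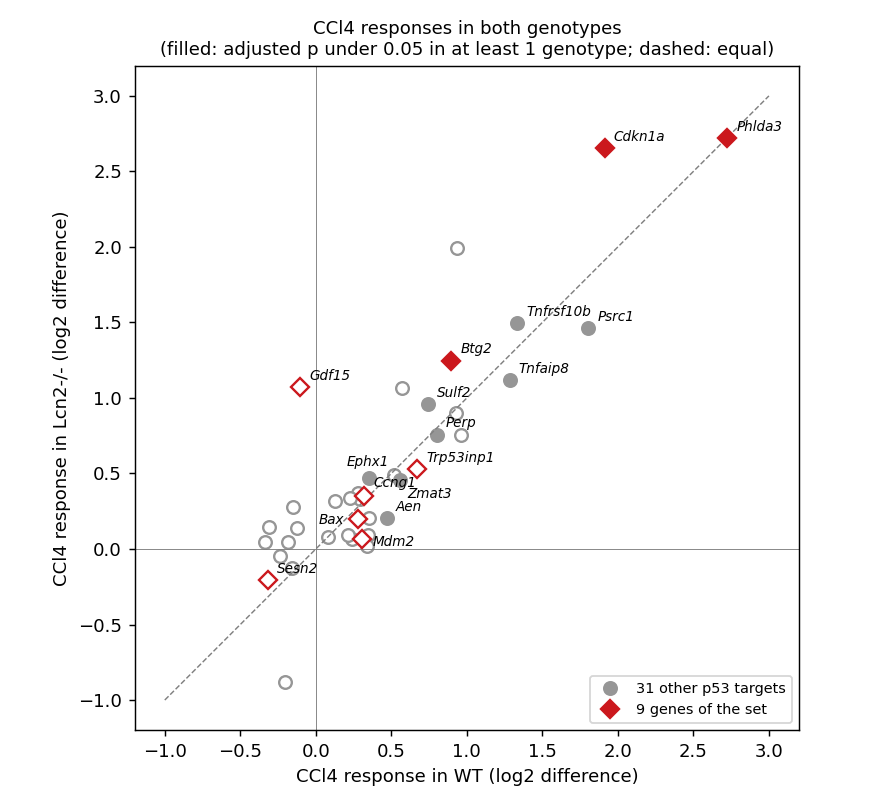
CCl4 response in WT (x axis) and in Lcn2-/- (y axis), both as log2 differences, for the 9 tested genes and 31 other p53 targets; filled points passed in at least 1 genotype and the dashed line marks equal responses. Phlda3 lies on the line at 2.72, and Gdf15 has -0.10 in WT and 1.07 in Lcn2-/-.

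Upstream, 1 of 15 genes of p53 and its regulators rose in each genotype, beside 8.05% of all genes in WT and 6.56% in Lcn2-/-. That gene was Trp63, a p53 relative known from stratified epithelia, which rose by 2.18 in WT and 1.58 in Lcn2-/- (adjusted p 4.73e-05 and 0.00236 in limma). The level of Trp53 itself was 7.03 to 9.40 over all arrays, with overlap between all groups. Of 6 other cyclin-dependent kinase inhibitors, relatives of p21 in function, 2 rose in both genotypes. Cdkn1c, the gene of p57, rose by 2.15 in WT and 1.75 in Lcn2-/- (limma adjusted p 2.38e-05 and 0.000516). Cdkn2c, the gene of p18, rose by 1.55 and 2.40 (limma adjusted p 0.000128 and 1.98e-05). Among 13 paralogues of the members, Cdkn1c included, Btg3, a relative of Btg2, also rose in WT (0.60, limma adjusted p 0.00948). Neither Cdkn1c control group overlapped its CCl4 group, for the lowest CCl4 array was 11.66 in WT and 10.71 in Lcn2-/- and the highest control 9.84 and 9.78. Without both controls numbered 3 the counts higher were 2 and 2 for the regulators, 4 and 3 for the kinase inhibitors and 3 and 1 for the paralogues, in WT and Lcn2-/-. Under a slide block Trp63, Cdkn1c, Cdkn2c and Btg3 passed in WT, and in Lcn2-/- Cdkn2c passed (2.76, adjusted p 0.00425 in limma) while Trp63 (1.63, adjusted p 0.14) and Cdkn1c (1.50, adjusted p 0.122) did not.

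Of 26 cell cycle genes, 2 rose in WT, Ccnd1 by 1.38 and Cdk1 by 1.20 (limma adjusted p 0.024 and 0.0402), and 1 in Lcn2-/-, Cdk1 by 1.51 (limma adjusted p 0.0321). Beside these counts, 8.05% of all genes were called higher in WT and 6.56% in Lcn2-/-. The counts of cell cycle genes rest on the controls numbered 3. Without both, 8 rose in WT and 5 in Lcn2-/-, with median differences of 0.96 and 0.70 against 0.56 and 0.13 with them. Under a slide block the medians were 2.07 and 1.97. Then 5 passed in WT, Cdk1 with Aurka, Birc5, Ccnb2 and Rrm2, genes of mitosis and DNA synthesis named after their values were seen, and Ccnd1 did not (1.99, adjusted p 0.092 in limma). In Lcn2-/- 0 passed in limma, with Cdk1 at 2.74 (adjusted p 0.0561). Between genotypes 0 of the 26 passed in limma, under CCl4 or in controls, with 4 and 1 at an unadjusted p under 0.05 (13.7% and 8.32% of all genes), and the median differences were -0.77 and -0.57, against -0.01 over all genes in both. Of 20 genes of the BCL2 family and caspases, relatives of Bax in function, 2 rose in each genotype. This is near the 8.05% of all genes called higher in WT and the 6.56% in Lcn2-/-. Mcl1, the gene of a protein that opposes Bax, rose by 0.43 in WT and 0.47 in Lcn2-/- (limma adjusted p 0.0241 and 0.0384). Besides Mcl1, Bcl2l11, which promotes apoptosis, rose in WT (0.84, limma adjusted p 0.0361, well above background on 2 of the 4 controls) and Bcl2, which opposes it, in Lcn2-/- (0.81, limma adjusted p 0.0387). Without both controls numbered 3, 5 were higher and 1 lower in WT and 4 higher in Lcn2-/-, and with slide as a block 0 passed in limma.

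The integrated stress response, a route to Sesn2 and Gdf15 that does not need p53, had 14 genes measured. In WT 4 rose and in Lcn2-/- 2 rose and 1 fell. Of all genes 8.05% were called higher in WT, and in Lcn2-/- 6.56% higher and 5.58% lower. With slide as a block 1 rose in each, Psat1, which codes for an enzyme of serine synthesis. Atf3 was then at 1.97 in WT and 2.06 in Lcn2-/- and did not pass (limma adjusted p 0.28 and 0.434). Without both controls numbered 3 the counts were 4 higher and 1 lower in WT and 3 higher and 1 lower in Lcn2-/-. Atf3, a stress-induced transcription factor, rose by 2.47 in WT and 2.68 in Lcn2-/- (limma adjusted p 0.00931 and 0.0158). Fgf21, which like Gdf15 codes for a stress hormone of the liver, was the single gene of these pathway lists that passed between genotypes in the fit without a block. With slide and column as a random block 7.44% of all genes were called under CCl4 and 3.05% in controls. Cdkn1c was then also lower in Lcn2-/- under CCl4, Chac1 higher under CCl4 and Bmf higher in controls, beside the other p53 targets counted above. In controls Fgf21 was 10.17 to 11.89 in WT and 6.0 to 8.49 in Lcn2-/-. This was a difference of -3.50 (SE 0.61) with an adjusted p of 0.0152 in limma. Under CCl4 it differed by -1.98 (limma adjusted p 0.131), and it passed there without both controls numbered 3 (-1.97, adjusted p 0.0348 in limma) and with slide and column as a random block (-2.04, adjusted p 0.0104 in limma).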

How the data were processed

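RNA of whole liver was labelled with Cy3 and hybridised to Agilent SurePrint G3 mouse arrays in 1 colour. The deposited scanner files, per the file headers from Agilent Feature Extraction, give for each of 62976 spots a background-corrected intensity, which was used here. A second deposited table holds log2 values, found to be log2 of the median minus background intensity after quantile normalization (99.81% of values within 0.05), with column medians of 6.532 to 6.551, and it served as an alternative. The submitters' processing notes name limma, with no version given in the sources used here.

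Of each array, 3671 control spots and spots marked as outliers were left out, log2 values of the spots were quantile normalized over 16 arrays, and spots of a probe were averaged. Probes had to have a value on every array and be well above background on at least 3 of the 16, the size of the smallest group, which left 33022 of 55681 probes. Probes were named by the array's own gene name, updated through the RefSeq accession where it matched (61.0% of genes tested), and the probe with the highest mean stood for a gene. The part of the transcript that each probe reads was not analysed here. Differences were tested in R 4.3.3 with limma 3.58.1 (lmFit, eBayes) on 4 groups, two-sided, with Benjamini-Hochberg adjustment over 24363 genes per comparison and a threshold of 0.05. Array number limits the precision. The members and all lists were chosen with earlier results of these data known. Named are all members, up to 4 genes per list with the lowest adjusted p in each CCl4 response and up to 2 between genotypes, Lcn2, and the 5 genes closest to Cdkn1a. Genes named because an alternative fit called them were chosen after their values were seen.

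Replicate numbers were checked for pairing. Deviations over all genes of the same-numbered WT and Lcn2-/- controls, which share a slide column, correlated at 0.233, 0.368 and 0.552, while over all groups 6 of 21 same-numbered pairs exceeded 0.1. Alternatives were another scaling, background correction, probe filter and probe rule, the authors' table, array weights, blocks for slide, tier, column and replicate number, and leaving out each array. Leaving out both controls numbered 3 was added after seeing the data.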

Additional observations from a re-analysis of the deposited data

Results flagged for a closer look

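In 5 of 27 gene and group combinations examined, 1 array lay far from the others of its group, where chance gives about 1 in 20. The combinations share arrays and are not independent, so no excess is read from this count. Cdkn1a on WT control 3 was 11.01, and the nearest other WT control was 8.52. Phlda3 on the same array was 12.16, with the nearest at 10.33. Phlda3 on WT CCl4 2 was 14.64, with the nearest at 13.15. The other values, in Lcn2-/- CCl4, lie much closer to their group, with Bax on Lcn2-/- CCl4 1 at 13.12 (nearest 13.02) and Mdm2 on Lcn2-/- CCl4 2 at 13.70 (nearest 13.85). The 9 combinations of Lcn2-/- controls, with 3 arrays, were too small to examine.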

How the results depend on the processing

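The count of members called in WT, 1 as reported, was 2 with 75th percentile scaling (21.1% of all genes called), 3 with array weights (28.8%), 3 with slide and column as a random block (22.3%), 3 without both controls numbered 3 (22.3%), and 0 with slide as a fixed block (5.32%). In Lcn2-/-, 3 as reported, it was 0 with slide as a fixed block (1.75%), 2 with normexp (11.8%), with no filter (7.75%), with the mean over probes (12%) or with the replicate block (12.2%), and 4 with array weights (28.6%). Between genotypes, 0 as reported, it was 1 under CCl4 with slide and column as a random block (7.44%), and in controls 1 with that block (3.05%) and 1 with array weights (5.14%). Leaving out 1 array gave 1 to 3 in WT (10.2% to 20.8% of all genes), 1 to 3 in Lcn2-/- (6.9% to 13.1%), 0 to 1 in controls (0.386% to 0.583%), and 0 under CCl4 and for the interaction. With the replicate block the counts were 1 in WT, 2 in Lcn2-/- and 0 in the other comparisons, and it changed no other call than that of Btg2 in Lcn2-/-. With 75th percentile scaling the median of all genes moved to -0.16 in WT and -0.14 in Lcn2-/-.

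The differences that changed sign had all missed the threshold in the comparison concerned, and the cause was not tested. With 75th percentile scaling Mdm2 in controls was 0.0202 and the Phlda3 interaction 0.0499. Array weights gave 0.00429 for Gdf15 in WT, 0.0431 for Trp53inp1 under CCl4, 0.0579 for Mdm2 in controls, and interactions of -0.00129 for Ccng1 and -0.027 for Sesn2. Slide as a block gave Ccng1 -0.0131 in WT, -0.0656 in Lcn2-/- and -0.0525 for the interaction. Tier as a block gave 0.0577 for Gdf15 in WT, under CCl4 0.167 for Ccng1, 0.202 for Trp53inp1, 0.247 for Btg2 and 0.0696 for Sesn2, in controls 0.0506 for Mdm2 and 0.219 for Ccng1, and -0.0525 for the Ccng1 interaction. Slide and column as a random block gave 0.0148 for the Phlda3 interaction. The replicate block gave 0.0358 for Gdf15 in WT, -0.0802 for Trp53inp1 in controls, and interactions of -0.0262 for Ccng1 and 0.0171 for Trp53inp1. Without both controls numbered 3, Gdf15 in WT was 0.0376 and Mdm2 in controls 0.114.

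Leaving out 1 array gave -0.353 to 0.0577 for Gdf15 in WT, under CCl4 -0.373 to 0.0324 for Trp53inp1, -0.309 to 0.135 for Btg2 and -0.172 to 0.0309 for Sesn2, in controls -0.0843 to 0.0718 for Mdm2 and -0.145 to 0.207 for Trp53inp1, and for the interaction -0.0966 to 0.199 for Ccng1, -0.412 to 0.0451 for Trp53inp1, -0.168 to 0.0376 for Bax, -0.00108 to 0.207 for Sesn2 and -0.508 to 0.313 for Phlda3. Treatment and slide go together on all but 1 array, and genotype and tier on all but 1.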
